A study of Mus musculus with 48 samples.

Results

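Gene expression in the hippocampus of *Cyfip2*+/- mice was compared with that of their wild-type (WT) littermates at postnatal week (PWK) 7. The comparison rests on 8 of the 48 libraries of the series, those labelled hippocampus and 7 weeks, from 4 heterozygous and 4 WT mice. All 8 mice were on the C57BL/6N background, the heterozygous mice lacked 1 functional *Cyfip2* allele, and the labels name no drug or other agent. RNA came from hippocampal tissue with all cell types together, and in such bulk samples fewer cells of a type and less RNA per cell cannot be told apart. The rest of the series holds the frontal cortex of the same age and both regions at PWK 1 and PWK 14, in 4 mice per genotype throughout. The question of the comparison is which transcripts and which cellular functions differ in young adult hippocampus that has lost 1 copy of *Cyfip2*, and which do not.

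CYFIP2 is a subunit of the WAVE regulatory complex, together with NCKAP1, a WAVE protein (WASF), an ABI protein and BRK1. The complex is held inactive until the small GTPase RAC1 binds it, and it then activates the ARP2/3 complex, which nucleates branched actin filaments in dendritic spines, axons and growth cones. CYFIP1, the close relative of CYFIP2, occupies the same place in the complex, and both proteins bind FMRP, the RNA-binding protein lost in fragile X syndrome. In the hippocampus, the pyramidal neurons of CA1 to CA3 and the granule cells of the dentate gyrus are excitatory neurons, and variants of *CYFIP2* in people are linked to early-onset epilepsy.

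*Cyfip2* (ENSMUSG00000020340) spans chr11:46193850-46312859 on the minus strand of GRCm38 and is protein coding. Its promoter is shown because the gene is where the genotypes differ, and those of *Fos*, *Nr4a1* and *Npas4* because they belong to the activity-regulated genes, whose levels between mice are described further on. Each sequence is the RefSeq GRCm38.p6 sequence of the 250 bases before the start that RefSeq annotates, 5′ to 3′ along the gene's strand, at chr11:46312359-46312608 (minus), chr12:85473640-85473889 (plus), chr15:101266596-101266845 (plus) and chr19:4989972-4990221 (minus). RefSeq and GENCODE, from which the gene spans are taken, place the start of *Fos* at the same base, whereas the RefSeq starts of *Cyfip2*, *Nr4a1* and *Npas4* lie downstream of the GENCODE starts, so that these 3 windows lie inside the GENCODE gene. Capitals mark TGACG on either strand (CGTCA on the strand shown), the core of the cAMP response element.
Cyfip2: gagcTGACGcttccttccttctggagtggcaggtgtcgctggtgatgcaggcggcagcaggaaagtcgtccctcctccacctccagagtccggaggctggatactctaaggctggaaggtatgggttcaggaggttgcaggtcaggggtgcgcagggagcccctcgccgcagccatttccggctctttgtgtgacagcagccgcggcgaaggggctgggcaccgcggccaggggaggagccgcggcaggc
Fos: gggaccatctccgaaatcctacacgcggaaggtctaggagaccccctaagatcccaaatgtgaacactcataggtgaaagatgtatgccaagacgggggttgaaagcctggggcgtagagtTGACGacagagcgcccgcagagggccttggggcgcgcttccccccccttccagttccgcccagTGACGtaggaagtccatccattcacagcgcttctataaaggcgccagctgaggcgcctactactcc
Nr4a1: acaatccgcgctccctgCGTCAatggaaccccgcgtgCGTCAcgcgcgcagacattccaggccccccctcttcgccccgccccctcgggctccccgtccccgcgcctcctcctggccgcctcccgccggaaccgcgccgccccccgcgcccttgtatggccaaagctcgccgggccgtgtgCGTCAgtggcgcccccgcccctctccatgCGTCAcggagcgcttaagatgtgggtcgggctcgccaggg
Npas4: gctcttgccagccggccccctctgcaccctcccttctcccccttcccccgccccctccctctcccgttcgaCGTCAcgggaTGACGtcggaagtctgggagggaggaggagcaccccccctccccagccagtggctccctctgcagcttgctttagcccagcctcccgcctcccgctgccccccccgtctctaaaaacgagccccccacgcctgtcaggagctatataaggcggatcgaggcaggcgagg
The motif occurred 1 time in the window of *Cyfip2*, 2 times in *Fos*, 4 times in *Nr4a1* and 2 times in *Npas4*. Windows of the same length held it in 19.8% of 27025 RefSeq genes and in 19 of the 28 activity-regulated genes that had an entry. A match describes letters and not a site in use.

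The values are normalized gene counts, and each library's values summed to between 30.6 and 32.3 M (M, 1e6). The spacing of low values gave a rough depth of 35.8 to 36.2 M reads counted to genes in each library. Libraries of the same genotype correlated between 0.985 and 0.989 across all genes on the log2 scale. Markers of the dentate gyrus and of CA1 were high in all 8 libraries, with *Prox1*, a transcription factor of granule cells, between 3713 and 4430 and *Fibcd1*, a CA1 marker, between 3708 and 4740. The labels give no sex, and the Y-linked gene *Ddx3y* lay between 1413 and 1708 in every library. The *Cyfip2*+/- library 3 stood apart in genes of the choroid plexus and the WT library 4 in activity-regulated genes, and the medians of the lists these libraries move most are given with and without them.

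*Cyfip2* was lower in every *Cyfip2*+/- mouse than in every WT mouse. The *Cyfip2*+/- libraries 1 to 4 had normalized counts of 18093, 16971, 17006 and 19569, and the WT libraries 1 to 4 had 25227, 25736, 24342 and 25858. The mean was 17910 ± 1223 (SD, n = 4) in *Cyfip2*+/- mice, which is 70.8% of the mean of 25291 ± 689 (SD, n = 4) in WT mice. The log2 fold change was -0.50 (standard error 0.05, 95% confidence interval -0.61 to -0.39), with an adjusted p of 0.0156 from limma, which fits a linear model to each gene and borrows information on variance from all of them. An exact permutation test over the 8 mice gave p = 0.0286 (two-sided), the smallest p that 4 mice against 4 allow. No stretch of 31 bases in the transcripts of *Cyfip2* occurred in those of another gene, *Cyfip1* included. The estimate lay between -0.54 and -0.47 when any 1 library was left out. The adjusted p was then 0.00145 without *Cyfip2*+/- library 4, and 0.0453 without *Cyfip2*+/- library 3. It was 0.111 and 0.0952 without *Cyfip2*+/- libraries 1 and 2, and 0.135, 0.152, 0.0616 and 0.129 without WT libraries 1 to 4.

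None of the other subunits of the WAVE complex passed the test, and their log2 fold changes lay closer to 0 than that of *Cyfip2*. *Cyfip1* had normalized counts of 4145, 3900, 4026 and 4487 in *Cyfip2*+/- mice and 4312, 3985, 4021 and 4035 in WT mice. Its log2 fold change was 0.02 (95% confidence interval -0.09 to 0.13), and the groups overlapped. *Nckap1*, the partner to which CYFIP proteins bind throughout the complex, measured 21170, 20183, 20744 and 23270 in *Cyfip2*+/- mice and 21955, 21190, 20396 and 20936 in WT mice. Here too the groups overlapped, with a log2 fold change of 0.01 (-0.10 to 0.12). *Wasf1*, the gene of WAVE1, which is abundant in neurons, measured 9009, 8430, 8762 and 10712 in *Cyfip2*+/- mice against 8605, 8125, 8568 and 9039 in WT mice, with a log2 fold change of 0.10 (-0.05 to 0.25). *Cyfip2*+/- library 4 was the highest for *Cyfip1*, *Nckap1* and *Wasf1*. Log2 fold changes were 0.07 for *Wasf3*, 0.05 for *Wasf2*, 0.02 for *Abi2*, 0.01 for *Abi1* and 0.01 for *Brk1*, the small subunit. The sign of the difference turned in at least 1 alternative for *Cyfip1*, *Nckap1*, *Wasf2*, *Abi1*, *Abi2* and *Brk1*, so no direction is given for them. *Abi3* and *Nckap1l*, which in the brain belong mainly to microglia, had log2 fold changes of -0.35 and -0.04. None of the 10 subunits other than *Cyfip2* reached an unadjusted p under 0.05 in limma, and 9 of them had a 95% confidence interval inside 1.5-fold in either direction. The exception was *Abi3*, between 74.2 and 128 in *Cyfip2*+/- mice and between 104 and 153 in WT mice.

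**Figure D1:**
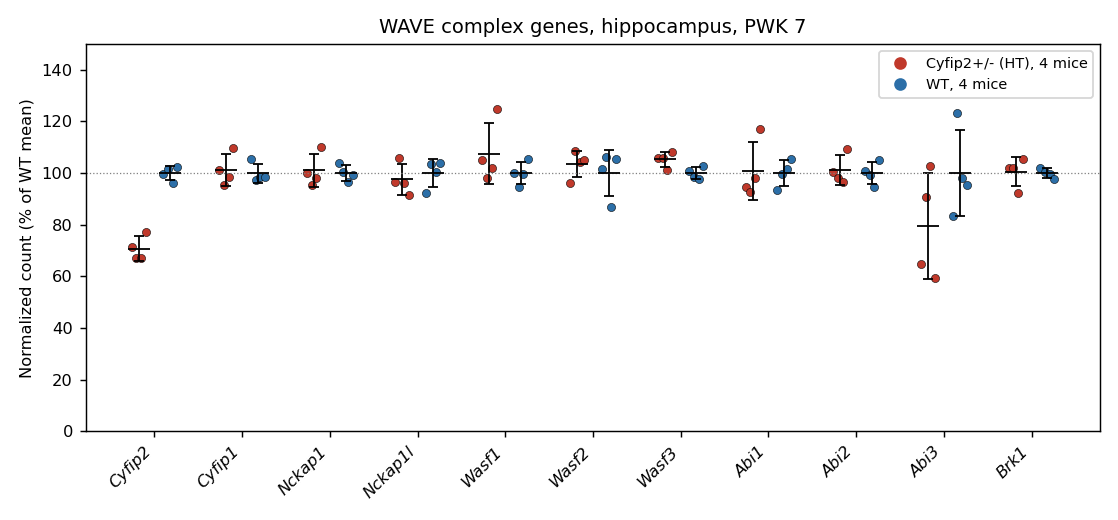
Normalized count of each WAVE complex gene as a percentage of its WT mean, for 4 *Cyfip2*+/- mice (red) and 4 WT mice (blue), where bars are the mean ± SD. The *Cyfip2*+/- mice averaged 70.8% of WT for *Cyfip2*, with no overlap, and the groups overlapped for each of the other 10 subunits.

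Of 16956 genes tested, *Cyfip2* was the only differentially expressed gene (DEG) at an adjusted p under 0.05 in limma, which is 0.0059% of the genes. At an unadjusted p under 0.05 in limma, 294 genes (1.73%) were higher and 298 (1.76%) were lower in *Cyfip2*+/- mice. Together these 592 genes made up 3.49% of those tested. Every *Cyfip2*+/- value was above every WT value in 181 genes (1.07%) and below in 202 (1.19%), together 2.26%. The median log2 fold change of all genes was 0.00. Left-out libraries moved the number of DEGs between 0 and 1: it was 0 without *Cyfip2*+/- library 1 or 2 or any 1 WT library, fits in which limma gave 469 to 784 genes an unadjusted p under 0.05.

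**Figure D2:**
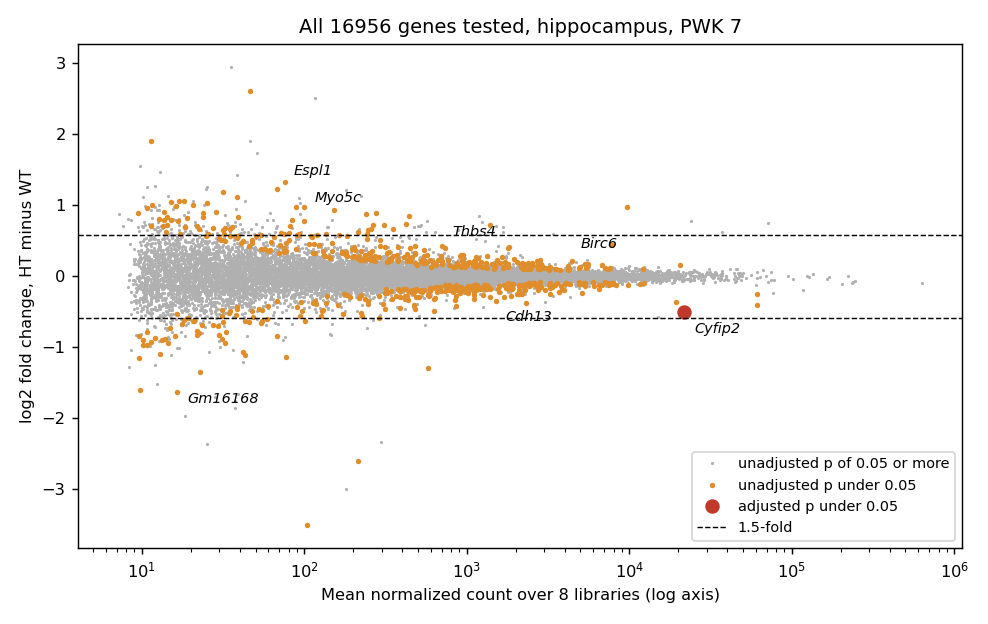
Log2 fold change (*Cyfip2*+/- minus WT) against the mean normalized count over 8 libraries (log axis) for 16956 genes, with 592 genes at an unadjusted p under 0.05 in orange and *Cyfip2*, the only gene at an adjusted p under 0.05, in red. Dashed lines mark 1.5-fold, and the spread narrows as the mean count rises.

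How large a difference these 8 mice leave possible was read from the 95% confidence interval of each gene. For 77.8% of the genes tested the whole interval lay inside 1.5-fold, and for 49.2% it lay inside 1.2-fold. Precision followed the level of the gene. Among 6251 genes with a mean of at least 1000, the interval reached a median of 0.12 on the log2 scale to either side, and 99.2% were inside 1.5-fold. Among 6576 genes between 100 and 1000 the median reach was 0.22 and the share was 91.6%, and among 4129 genes under 100 they were 0.58 and 23.3%. A fitted difference of 2-fold or more, on the log2(normalized count + 1) scale, was seen in 62 genes, of which 54 had a mean under 100, and none had a mean of 1000 or above. The other 8 were *Gm17167*, *Eif4a-ps4*, *Gm10131*, *Gm14308*, *Gm14434*, *Gm28037*, *Rps13-ps1* and *Gh*, named here after their values were seen. In all 8 the groups overlapped. *Gh*, the gene of growth hormone, was 15.9, 495, 83.9 and 306 in *Cyfip2*+/- mice and 387, 2.58, 94.7 and 55.7 in WT mice.

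Functions next to the WAVE complex were measured precisely and no member differed at an unadjusted p under 0.05. All 39 tested genes of RAC1 and its regulators had an interval inside 1.5-fold, none reached an unadjusted p under 0.05, and their median log2 fold change was -0.01. *Rac1* itself lay between 7463 and 7873 in *Cyfip2*+/- mice and between 7397 and 7687 in WT mice. The 10 genes of the ARP2/3 complex, the actin nucleator, were likewise all inside 1.5-fold, with a median of -0.01 and *Actr3* at -0.01 (-0.12 to 0.10). Of 54 genes that bind or turn over actin filaments, 53 were inside 1.5-fold and none had an unadjusted p under 0.05. The exception was *Was*, the blood-cell relative of the WAVE genes, between 22.6 and 52.7 in all libraries. FMRP and its partners were inside 1.5-fold in 13 of 13, with *Fmr1* at 2005, 2093, 1968 and 2072 in *Cyfip2*+/- mice and 2016, 1873, 1935 and 2049 in WT mice.

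The same held for most synaptic genes. Ionotropic glutamate receptors and their auxiliary subunits were inside 1.5-fold in 26 of 26, with *Gria1* at 0.04 (-0.09 to 0.18), *Gria2* at 0.03 (-0.10 to 0.15), *Grin1* at -0.01 (-0.14 to 0.11) and *Grin2b* at 0.06 (-0.08 to 0.20) on the log2 scale. Of postsynaptic density scaffolds, 30 of 31 were inside, with *Dlg4*, the gene of PSD-95, at 0.05 (-0.08 to 0.18), *Shank3* at 0.07 (-0.05 to 0.19) and *Camk2a* at 0.03 (-0.13 to 0.19). Metabotropic glutamate receptors were inside in 6 of 7, with *Grm8* outside. Genes of synaptic vesicles and release were inside in 41 of 41, with *Snap25*, a membrane fusion protein, at -0.00 (-0.12 to 0.12). The *Cyfip2*+/- mice lay at both ends for these genes, with library 4 the highest for 27 of 41 and library 3 the lowest for 27. For the scaffolds the same libraries were highest for 21 and lowest for 13 of 31. The vesicle median lay between -0.03 and 0.04 with 1 library left out. Genes of GABA synthesis, transport and receptors were inside in 24 of 24, with *Gad1* and *Gad2*, the GABA-synthesizing enzymes, at -0.08 and -0.10. The list of voltage-gated sodium and potassium channels, which also holds the calcium-activated channel gene *Kcnn3*, was inside in 39 of 40. Voltage-gated calcium channels were inside in 15 of 15. Genes of developmental epilepsies were inside in 39 of 39, with a median of 0.00 and none at an unadjusted p under 0.05.

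A few synaptic genes differed at an unadjusted p under 0.05, all of them lower in *Cyfip2*+/- mice and none past adjustment. *Grin3a*, an NMDA receptor subunit, measured 1167, 1152, 1172 and 1120 in *Cyfip2*+/- mice and 1340, 1257, 1180 and 1468 in WT mice (log2 fold change -0.18, 95% confidence interval -0.33 to -0.04). *Grik1*, a kainate receptor subunit, was at -0.18 and *Gria4*, an AMPA receptor subunit, at -0.16. *Rab3b*, a GTPase of vesicle release, was at -0.32, *Gabra3*, a GABA-A receptor subunit, at -0.23 and *Kcnn3*, a calcium-activated potassium channel, at -0.20. *Grin3a* and *Grik1* did not overlap between genotypes, whereas the other 4 did. Of 26 ionotropic receptor genes 2 did not overlap, beside 2.26% of all genes. The genes at an unadjusted p under 0.05 are 3 of 26 ionotropic receptor genes, 1 of 41 vesicle genes, 1 of 24 GABA genes and 1 of 40 channels, beside 1.76% of all genes.

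**Figure D3:**
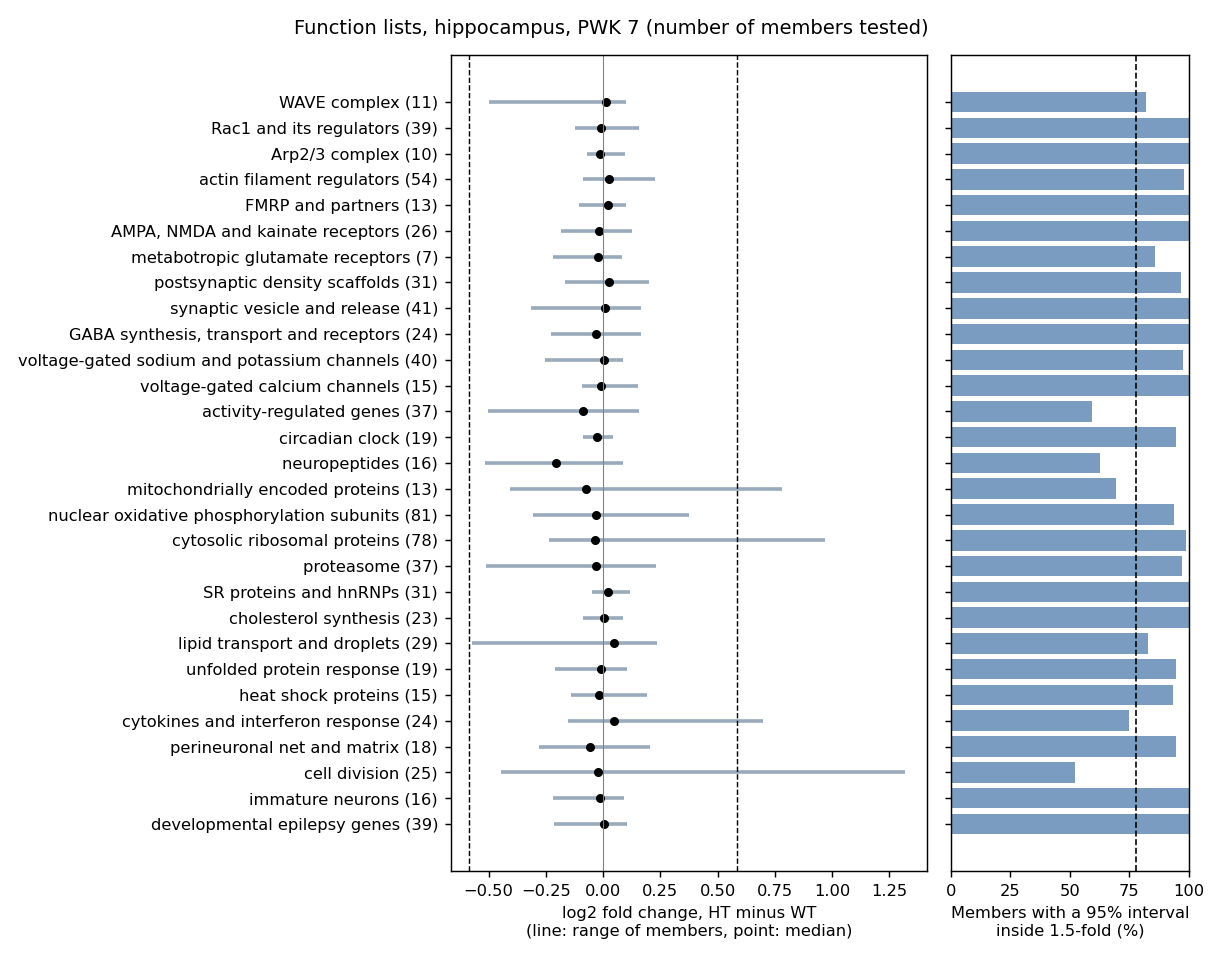
For 29 lists of genes by function, the range (line) and median (point) of the members' log2 fold changes, *Cyfip2*+/- minus WT, and the share of members with a 95% confidence interval inside 1.5-fold (bars, where the dashed line is the 77.8% of all genes). In 11 lists with 277 tested members every interval lay inside 1.5-fold, and cell division, activity-regulated genes and neuropeptides had the lowest shares.

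Across all 29 function lists, the median log2 fold change was within 0.1 of 0 in 28, and in 12 lists no member reached an unadjusted p under 0.05. Splicing factors of the SR and hnRNP families were inside 1.5-fold in 31 of 31, with 1 member, *Hnrnpa0*, higher at an unadjusted p under 0.05 (log2 fold change 0.12, 0.03 to 0.21). Cholesterol synthesis was inside in 23 of 23 with a median of 0.00. The unfolded protein response was inside in 18 of 19, heat shock proteins in 14 of 15, and the circadian clock in 18 of 19, with *Ciart* outside. The clock median was -0.03, and 0.04 without *Cyfip2*+/- library 3 and 0.02 without WT library 4. In lipid transport and droplets, 24 of 29 were inside and the median was 0.05, or 0.00 without *Cyfip2*+/- library 3, the highest for 15 members, and *Fabp5*, a fatty acid carrier, was 2979, 2662, 2784 and 2899 in *Cyfip2*+/- mice and 2990, 3145, 3420 and 3368 in WT mice (log2 fold change -0.19, -0.31 to -0.07). Of 18 matrix genes 17 were inside, and *Tnc*, a matrix protein of glia, was at -0.28. The matrix median was -0.06, and 12 of 18 had a lower mean, beside 49.7% of all genes. Their summed count was 105863 to 109562 in *Cyfip2*+/- mice and 109886 to 114356 in WT mice, which did not overlap. Out of 47 lists, only this one and that of nuclear oxidative phosphorylation had sums that did not overlap. Singly, 2 of the 18 did not overlap, beside 2.26% of all genes. Genes of immature neurons were inside in 16 of 16, with *Tubb2b*, a tubulin (-0.11), and *Dpysl3*, a protein of growth cones (-0.13), lower at an unadjusted p under 0.05. In cytokines and interferon response 18 of 24 were inside, with *H2-D1*, a class I histocompatibility gene, higher at 0.20.

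Genes of oxidative phosphorylation, the ribosome and the proteasome had median log2 fold changes of -0.03 each. Of 81 nuclear genes of oxidative phosphorylation, 64 had a lower mean in *Cyfip2*+/- mice, 10 had an unadjusted p under 0.05 in that direction and none in the other, beside 1.76% of all genes lower and 49.7% with a lower mean. Of the 81, 76 were inside 1.5-fold. *Cox5b*, a subunit of cytochrome c oxidase, was 5046, 5194, 5017 and 5082 in *Cyfip2*+/- mice and 5456, 5384, 5576 and 5521 in WT mice, which did not overlap. The log2 fold change of *Cox5b* was -0.11 (-0.18 to -0.03), and those of the other 9 lay between -0.16 for *Ndufs4* and -0.08 for *Atp5f1*. Of 78 cytosolic ribosomal protein genes, 62 had a lower mean and 7 were lower at an unadjusted p under 0.05, led by *Rps29* at -0.24, while *Rps27* was higher at 0.97. *Rps27* had 27.6% of its 31-base stretches in common with other genes, nearly all with *Rps27rt*, so its value is uncertain. The lower values were unevenly spread over the mice. Relative to all 8 libraries, the mean log2 level of the ribosomal genes was -0.07 and -0.05 in *Cyfip2*+/- libraries 1 and 4 but 0.03 and 0.04 in libraries 2 and 3, which were above 3 of the 4 WT libraries. For oxidative phosphorylation it was -0.06 and -0.04 in *Cyfip2*+/- libraries 1 and 4 and 0.01 and 0.02 in libraries 2 and 3, against 0.00 to 0.03 in WT mice. The summed count of the 81 genes did not overlap, at 263712 to 268698 in *Cyfip2*+/- mice and 270270 to 274769 in WT mice. Out of 47 lists, only this one and the matrix list had such sums, and they were picked out by these values. Singly, 9 of the 81 did not overlap, beside 2.26% of all genes. The oxidative phosphorylation median stayed between -0.04 and -0.03 in every alternative. The ribosomal median was -0.02 without *Cyfip2*+/- library 1, without *Cyfip2*+/- library 4 or without WT library 3. In the proteasome, 24 of 37 had a lower mean, and *Psmb9* (-0.51) and *Psmc3* (-0.10) had an unadjusted p under 0.05. None of these genes passed adjustment. Of 13 genes of mitochondrial DNA, 9 were inside 1.5-fold and the median was -0.07. *mt-Co2* was at -0.41 and *mt-Nd4l* at -0.37, both at an unadjusted p under 0.05, *mt-Nd3* at -0.37, and *mt-Co1*, the member with the most counts, at -0.10. *mt-Co3* was at 0.78 (-0.23 to 1.79), with 37220, 15901, 19474 and 41528 in *Cyfip2*+/- mice and 10081, 13811, 9118 and 43436 in WT mice. The groups overlapped in each of these 5 genes.

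The genes with the smallest p after *Cyfip2* were short of the threshold. They are the 8 highest-ranked in each direction and were chosen by this comparison, so their values describe it. Of these 16 genes, 15 had groups that did not overlap, beside 2.26% of all genes, a count that the choice by p fixes in part. *Cdh13*, a cadherin without a cytoplasmic part, lies at chr8:118283733-119324921 and measured 1343, 1400, 1306 and 1259 in *Cyfip2*+/- mice and 1621, 1664, 1616 and 1868 in WT mice. Its log2 fold change was -0.35 (95% confidence interval -0.48 to -0.22), with an adjusted p of 0.545 from limma. *Birc6*, a very large ubiquitin ligase that inhibits apoptosis, lies at chr17:74528295-74703356 and measured 4560, 4943, 4823 and 4716 in *Cyfip2*+/- mice and 4053, 4075, 4158 and 4080 in WT mice. Its log2 fold change was 0.22 (0.13 to 0.30), with the same adjusted p. Every *Cyfip2*+/- mouse was thus below WT for *Cdh13* and above WT for *Birc6*.

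*Espl1*, the gene of separase, which parts sister chromatids, was 110, 62.7, 173 and 95.1 in *Cyfip2*+/- mice and 39.0, 36.8, 36.6 and 52.4 in WT mice, with a log2 fold change of 1.32. No other gene of cell division reached an unadjusted p under 0.05 among 25 tested, of which 13 were inside 1.5-fold. *Ccn3*, a secreted matricellular protein, was 2970, 3172, 2898 and 2864 in *Cyfip2*+/- mice and 3371, 3635, 3378 and 3781 in WT mice, with a log2 fold change of -0.25. *Birc6*, *Cdh13*, *Espl1* and *Ccn3* are also on the study's own list of DEGs for this comparison. The study called DEGs with DESeq2 at an adjusted p under 0.05, whereas none of these genes passed adjustment in limma here. Its list was drawn up on the same mice and is not independent evidence. Among the higher genes were further *Adgrl4*, an adhesion receptor of endothelium (0.31), *Thbs4*, a thrombospondin of astrocytes (0.42), *Myo5c*, an unconventional myosin (0.97), and *Fbrs* (0.27). Among the lower genes were *Cntnap4*, a neurexin-related protein of interneurons (-0.31), *Ptn*, the growth factor pleiotrophin (-0.18), *Rps6kc1* (-0.27) and *Gm16168* (-1.63), which had at most 10.2 counts in *Cyfip2*+/- mice and at least 17.4 in WT mice. *Gm16168* is annotated as antisense, and its reads can be told from those of the opposite strand only if the counting used strand. The remaining 4 share most of their sequence with other genes and are uncertain. *Tpt1-ps3* had 100% of its 31-base stretches in common with other genes (*Tpt1*), *Gm2026* 99.0%, *Gm28035* 94.9% and *Srp54a* 72.5% (*Srp54b*). The 3 *Srp54* genes summed to 85.6% of WT in *Cyfip2*+/- mice, while *Srp54a* alone was at 77.7%.

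**Figure D4:**
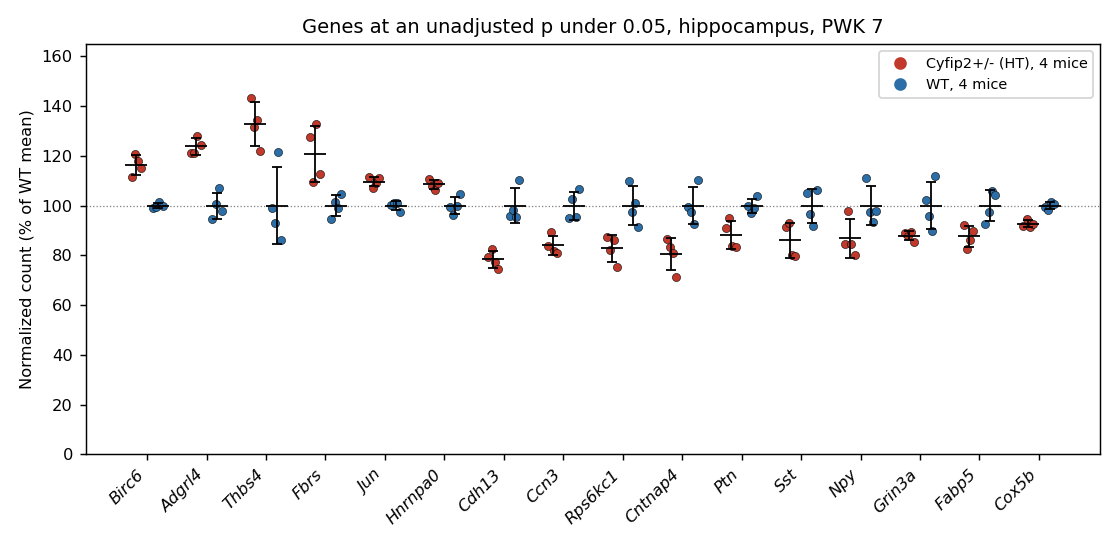
Normalized count as a percentage of the WT mean for 16 genes at an unadjusted p under 0.05, in 4 *Cyfip2*+/- mice (red) and 4 WT mice (blue), where bars are the mean ± SD. From *Birc6* to *Hnrnpa0* the *Cyfip2*+/- mice were higher and from *Cdh13* to *Cox5b* they were lower, and none of these genes passed adjustment.

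In tissue and ages that this ranking did not use, the 16 genes did not keep a common direction. In the hippocampus of other mice at PWK 1, 7 of the 15 that could be tested differed in the same direction, of which *Ccn3* (log2 fold change -0.31) and *Gm2026* had an unadjusted p under 0.05. At PWK 14, 9 of 16 had the same direction, and *Thbs4*, at 0.42, had an unadjusted p under 0.05. In the cortex at PWK 7, 12 of 16 had the same direction, and *Srp54a*, at -0.38, had an unadjusted p under 0.05. None passed adjustment in any of these 3 comparisons. The share of all genes at an unadjusted p under 0.05 was not counted for them. Whether the cortex at PWK 7 came from the same mice as the hippocampus is not given by the labels. *Cdh13*, at -0.35 in the hippocampus at PWK 7, was at -0.04 at PWK 1, 0.00 at PWK 14 and 0.06 in the cortex. *Birc6* was at 0.15, 0.16 and 0.00 in the same order.

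The difference between genotypes was also tested against the other ages and the cortex as an interaction. No gene passed adjustment in limma, with a smallest adjusted p of 0.629, 0.669 and 1.0, for PWK 7 against PWK 1 (1215 of 17581 genes, 6.91%, at an unadjusted p under 0.05), PWK 7 against PWK 14 (625 of 17473, 3.58%) or hippocampus against cortex at PWK 7 (513 of 17643, 2.91%). A block that treats cortex and hippocampus libraries of the same genotype and replicate number as the same mouse gave 750 (4.25%) for the last count. The labels do not state that these libraries share a mouse. Again no gene passed adjustment. For *Cyfip2* the log2 fold change at PWK 7 differed from that at PWK 1 by 0.00 (95% confidence interval -0.16 to 0.16), from that at PWK 14 by 0.06 (-0.11 to 0.24), and from that in the cortex by 0.07 (-0.06 to 0.20). Without WT library 4 of PWK 1, 5 genes passed for PWK 1 (*Mobp*, *Ermn*, *Mog*, *Tmem88b* and *Mag*, named after their values were seen), of which *Mobp*, *Mog* and *Mag* encode myelin proteins, and without *Cyfip2*+/- library 4 of PWK 1 there was 1 (*Gm38226*). Without WT library 4 of PWK 14, 1 gene (*Gm7336*) passed for PWK 14.

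Genes close to *Cyfip2* were examined because they travel with the targeted allele. Within 1 Mb of the gene, 12 other genes were tested, with log2 fold changes between -0.47 and 0.88 and a median of -0.03. *Adam19*, a membrane metalloprotease, had an unadjusted p under 0.05 (log2 fold change -0.15, -0.29 to -0.01) and the others did not. That is 1 of 12, beside 3.49% of all genes at this limit. *Havcr2*, a receptor of immune cells, came next at 0.30. *Fndc9* lies inside the *Cyfip2* gene on the other strand, at chr11:46235531-46239872, and was between 16.2 and 26.9 in *Cyfip2*+/- mice and between 22.2 and 42.3 in WT mice.

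Activity-regulated genes, which neurons transcribe within minutes to hours of firing, varied more between mice than between genotypes. *Fos* was 273, 543, 209 and 612 in *Cyfip2*+/- mice and 343, 378, 291 and 1033 in WT mice. *Egr2* was 48.9, 92.1, 42.4 and 167 against 76.2, 75.7, 61.0 and 371, and *Arc*, an effector of synaptic scaling, was 2700, 4494, 2145 and 6237 against 3860, 3821, 3191 and 7803. WT library 4 was the highest of all 8 libraries in 26 of the 37 genes tested, and *Cyfip2*+/- library 3 the lowest in 22. *Npas4* and *Nr4a1* had their highest values, 695 and 2867, in WT library 4 as well, and *Fos*, *Npas4* and *Nr4a1* all had their lowest value in *Cyfip2*+/- library 3. The median log2 fold change of the 37 genes was -0.09, with 22 inside 1.5-fold, 1 member higher (*Jun*) and 1 lower (*Dusp6*, a phosphatase that restrains ERK, -0.30) at an unadjusted p under 0.05. It was 0.04 without WT library 4, 0.00 without *Cyfip2*+/- library 3 and 0.15 without both. *Jun* was the member with the smallest p, with 3456, 3325, 3385 and 3442 in *Cyfip2*+/- mice and 3110, 3134, 3141 and 3027 in WT mice (log2 fold change 0.13, 0.05 to 0.21), and it did not follow *Fos* between mice. The clock genes *Per1* and *Per2* were likewise highest in the libraries numbered 4 of both genotypes, with *Per1* at 2794 and 3164 against 1583 to 1935 in the other 6.

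**Figure D5:**
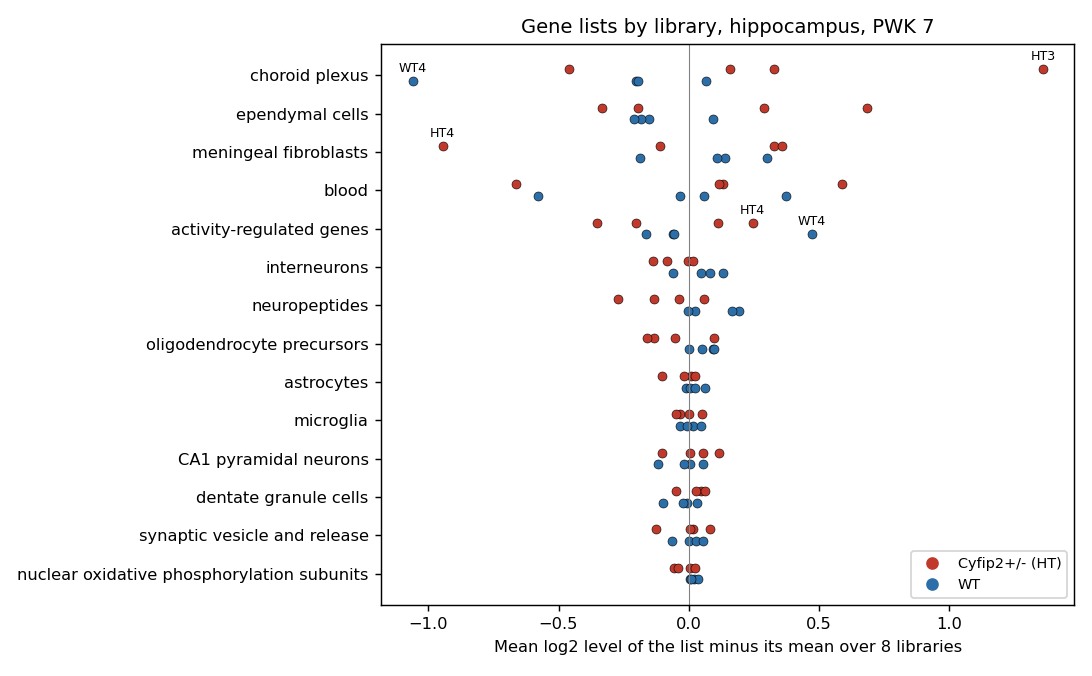
Mean log2 level of 14 gene lists in each library minus its mean over the 8 libraries, for *Cyfip2*+/- (red) and WT (blue) mice. Choroid plexus genes ranged from -1.06 in WT library 4 to 1.36 in *Cyfip2*+/- library 3 and activity-regulated genes reached 0.47 in WT library 4, whereas the lists of synaptic vesicle, microglia and dentate granule cell genes stayed between -0.12 and 0.08.

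Neuropeptide genes were the function list farthest from 0. Their median log2 fold change was -0.20 over 16 genes, 13 of which had a lower mean in *Cyfip2*+/- mice, and 3 were lower at an unadjusted p under 0.05, beside 49.7% and 1.76% of all genes. *Sst*, the peptide of a class of interneurons, was 3599, 3667, 3166 and 3141 in *Cyfip2*+/- mice and 4137, 3814, 3626 and 4189 in WT mice (log2 fold change -0.22, -0.36 to -0.07). *Npy* was 669, 774, 668 and 634 against 879, 771, 738 and 773 (-0.20), and *Grp*, gastrin-releasing peptide, was 425, 326, 335 and 243 against 482, 433, 405 and 468 (-0.45). In each of these genes the groups overlapped. Of the 14 interneuron markers, which include *Sst* and *Npy*, 13 had a lower mean (49.7% of all genes), the median was -0.08 and all 14 were inside 1.5-fold. Without both libraries that stood apart, the median was -0.15 for neuropeptides and -0.03 for interneuron markers.

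Markers of the principal cells and of most glia differed little in their medians. These were 0.03 for CA1 pyramidal neurons, 0.02 for CA2 and CA3, 0.04 for dentate granule cells, -0.06 for astrocytes, -0.03 for myelinating oligodendrocytes and 0.00 for microglia. In the last 4 of these lists, every tested member was inside 1.5-fold (12, 13, 15 and 16 genes), as were 6 of 7 for CA1 and 9 of 11 for CA2 and CA3. Endothelial markers were inside in 10 of 11 and markers of pericytes and smooth muscle in 8 of 8, with medians of 0.00 and -0.06. Blood genes had a median of 0.07 with 1 of 5 inside, and markers of reactive astrocytes a median of -0.04 with 7 of 11 inside. The reactive astrocyte median ran from -0.07 to 0.12 with 1 library left out, and was 0.12 without *Cyfip2*+/- library 4 and -0.06 without *Cyfip2*+/- library 3. The oligodendrocyte median was 0.06 without *Cyfip2*+/- library 4, the lowest for 14 of the 15 genes, and -0.12 without *Cyfip2*+/- library 2, the highest for 12. Oligodendrocyte precursors had a median of -0.13, with all 11 markers lower in the mean (49.7% of all genes) and all inside 1.5-fold, and *Pdgfra*, their growth factor receptor, was at -0.14 (-0.27 to -0.02). Astrocyte genes *Fgfr3* and *S100b* and the microglial receptor gene *P2ry12* were at -0.15, -0.13 and -0.20, each at an unadjusted p under 0.05. They are 2 of 13 astrocyte and 1 of 16 microglial markers, beside 1.76% of all genes. Of the 16 microglial markers, 8 had a lower mean and 8 a higher mean. *Gfap*, which rises in reactive astrocytes, was at 0.09 (-0.02 to 0.21).

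Genes of the choroid plexus, a tissue beside the hippocampus in the ventricle, differed most between libraries. *Ttr*, its transthyretin gene, was 44479, 84198, 170063 and 69477 in *Cyfip2*+/- mice and 49244, 55480, 72623 and 27802 in WT mice. *Cyfip2*+/- library 3 was the highest in 12 of 12 markers and WT library 4 the lowest in 11. The summed count of the 12 markers was between 75199 and 271050 in *Cyfip2*+/- mice and between 51976 and 118088 in WT mice, and no marker was near 0 in any library. The median log2 fold change was 0.72, with *Aqp1*, a water channel, and *Otx2*, a transcription factor, at an unadjusted p under 0.05. It was 0.37 without *Cyfip2*+/- library 3, 0.44 without WT library 4 and 0.12 without both. Ependymal markers had a median of 0.24 and 0.04 without *Cyfip2*+/- library 3. *Lcn2*, a gene of inflamed choroid plexus and of reactive astrocytes, was 225 in *Cyfip2*+/- library 3 and between 5.27 and 17.8 in the other 7. Meningeal markers (median -0.25) were lowest in *Cyfip2*+/- library 4, the lowest library for 7 of 8, and without it their median was 0.09. Lists for neighbouring brain regions had medians of -0.03 for striatum, -0.03 for cortex and -0.02 for thalamus and habenula. At an unadjusted p under 0.05, 1 of 7 striatal markers (*Ppp1r1b*, 0.39, 0.08 to 0.71) and 1 of 10 cortical markers (*Nptx1*, 0.15, 0.02 to 0.29) were higher, beside 1.73% of all genes. At the same limit 1 of 9 thalamic markers (*Nwd2*, -0.22) was lower, beside 1.76% of all genes. *Ppp1r1b* was highest, at 2574, in *Cyfip2*+/- library 3. The part of these neighbouring tissues in other differences was not tested. Without both libraries that stood apart, 240 of the 592 genes at an unadjusted p under 0.05 were again so, and the log2 fold change of *Cyfip2* was -0.47 (adjusted p = 0.273 from limma, 3 mice against 3).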

How the data were processed

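RNA was sequenced from stranded libraries, for which the labels name an mRNA kit and the study's methods a total RNA kit. The deposited values are a signal, namely gene counts that the authors obtained with Salmon (GRCm38), collapsed from transcripts by tximport and scaled by DESeq2. The submitters' processing notes name Salmon 0.11.2, R 3.6.0 and DESeq2 1.19.11, and the study's methods name other versions of all 3. The annotation release and the filter on genes are not given in the sources used here. Of 18428 identifiers, 18414 matched GENCODE vM21.

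Low values of genes with 1 transcript fell within 0.1 of whole multiples of a step in only 57.1% to 89.7% of cases, so reads were not recovered and no count test was run. The model was limma 3.58.1 (R 4.3.3; lmFit, eBayes with trend) on log2(normalized count + 1), a scale that understates changes of low genes, keeping genes that reached 10 in 4 or more libraries. P-values were two-sided and adjusted by Benjamini and Hochberg's method. Each comparison used its own 8 libraries and interactions 16. A 95% confidence interval inside log2(1.5) in either direction was called inside 1.5-fold. Shared sequence was counted over 31-base stretches of GENCODE transcripts; tables used pandas 2.3.3 (Python 3.11.15). The steps were tested on simulated data.

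Replicates are separate mice, as far as the labels tell. The 47 gene lists (29 of function, 18 of cell markers), the named genes (WAVE complex members, the study's own list for this comparison, the 8 smallest p-values in each direction, neighbours of *Cyfip2*, and in each list the members of the smallest p or the most counts) and the comparison were chosen with earlier results of these data known, and no test was made over a list. A gene on the study's list, given by a human symbol, matched no mouse gene and is not analysed here. Some genes are not reported here by name.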

Additional observations from a re-analysis of the deposited data

Results flagged for a closer look

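Of 152 groups of 4 libraries tested with Dixon's test, 5 had a library far from the other 3, where about 8 would be flagged by chance at 1 in 20. WT library 1 had a normalized count of 4312 for *Cyfip1*, against 3985 to 4035 in the other WT libraries. WT library 4 had 52.4 for *Espl1*, against 36.6 to 39.0. The mean log2 level of postsynaptic density scaffolds, relative to all 8 libraries, was -0.0611 in WT library 3 and 0.0095 to 0.0159 in the other WT libraries. That of activity-regulated genes was 0.47 in WT library 4 and -0.16 to -0.05 in the others. That of immature neuron genes was 0.0764 in *Cyfip2*+/- library 1 and -0.0447 to -0.0342 in the other *Cyfip2*+/- libraries.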

How the results depend on the processing

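The number of DEGs was 0 to 1 when 1 library was left out, and 0 when *Cyfip2*+/- library 3 and WT library 4 were both left out, an alternative chosen after seeing the data. The log2 fold change of *Cyfip2* lay between -0.5433 and -0.4748 with 1 library left out, with an adjusted p from 0.00145 to 0.152 (limma), and was -0.465 with both left out. Genes at an unadjusted p under 0.05 numbered 469 higher and 409 lower with the replicate number as a block. The labels do not say whether the numbers pair the mice. Same-numbered mice correlated at -0.02, 0.05, 0.38 and 0.30 in their deviations. Of the 4 *Cyfip2*+/- mice, 2 (numbers 3 and 4) correlated best with the WT mouse of their own number. Whether mice of the same number shared handling was not tested. The DEG count and the call of *Cyfip2* were the same with the block. Genes inside a 1.2-fold margin in place of 1.5-fold numbered 8346. The interaction with PWK 1 gave 0 to 5 genes with 1 library left out. That with PWK 14 gave 0 to 1, and 1 when all 48 libraries shared the variance. Signs turned in 6 WAVE genes with differences near 0: with array weights *Nckap1* was at -0.0014 and *Abi1* at -0.0074, and with 1 library left out the range was -0.0227 to 0.0447 for *Cyfip1*, -0.0287 to 0.0397 for *Nckap1*, -0.0128 to 0.0877 for *Wasf2*, -0.0703 to 0.043 for *Abi1*, -0.0224 to 0.0408 for *Abi2* and -0.0193 to 0.0443 for *Brk1*. Of 940 list medians under the alternatives, 939 moved by less than the spread between replicates. This limit is wide where replicates vary, so the count does not show that every median was stable. The choroid plexus median moved from 0.72 to 0.12 and the meningeal median from -0.25 to 0.09, both within it. The causes of these changes were not tested. Of the genes with a mean under 100, 23.3% had an interval inside 1.5-fold.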
